A study of Homo sapiens with 2 samples.

Results

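The genes for the proteins of the mitochondrial ribosome were taken as all protein-coding genes of RefSeq on GRCh38 whose symbols start with MRPL or MRPS. They number 77 of the 19974 protein-coding genes on chromosomes 1 to 22 and X, with 49 MRPL genes, named for the large subunit, and 28 MRPS genes, named for the small subunit. F36P, a human erythroleukaemia line, carried a retroviral MSCV-PIG vector that was either empty (Vector, with a genotype labelled WT) or expressed AM-ERG, which is the ETS transcription factor ERG with an AM tag (genotype labelled ERG overexpression). Both cultures were under puromycin, 1 µg/ml for 4 days, and immunoprecipitation with an AM-Tag antibody gave 1 library per group. The measurement was 1 list of 1645 peaks, of which 1564 lay on chromosomes 1 to 22 and X. The sources used here do not say which library the list was called on or whether the other was its control. There were thus no replicates, AM-ERG could not be compared with Vector, and the identity of the line was not checked since no expression was measured. A gene without a peak is a gene at which none was listed at this depth, which is unknown in reads.

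Mitochondrial ribosomes translate the few messenger RNAs made from mitochondrial DNA, all of which encode subunits of the respiratory chain and ATP synthase. Their proteins are all encoded in the nucleus, made in the cytosol and imported. Some have counterparts in bacterial ribosomes and others are specific to mitochondria. Promoters of nuclear genes for mitochondrial proteins often hold sites for ETS factors such as GABPA, and for YY1 and NRF1. ETS factors share a binding core of GGAA, and CCGGAAG is a form of it common at the promoters of widely expressed genes.

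The promoter windows that carry the main contrasts are shown here first. Each is the RefSeq window (GRCh38.p14) from 250 bases before to 50 bases after a transcription start, 5′ to 3′ on the strand of the gene, with CCGGAAG or its reverse complement CTTCCGG in capitals. The windows of MRPS34 (chr16:1773085-1773384, minus strand) and MRPL51 (chr12:6493213-6493512, minus strand) hold 3 and 2 copies. The MRPS34 window lies whole under a peak, and 187 of the 300 bases of the MRPL51 window do, with both copies among them. The window of MRPS22 (chr3:139343744-139344043, plus strand), chosen for display after its values were seen, holds 3 copies, and the nearest summit was 394 kb away. The window of MRPS18C (chr4:83455808-83456107, plus strand) holds 1 copy just beyond the edge of a peak. That of MRPL24 (chr1:156741039-156741338, minus strand) holds none, but it overlaps a peak by only 77 bases and does not contain its summit. The window of HIRA (chr22:19431684-19431983, minus strand), the neighbour of MRPL40, contains the summit of the peak counted for MRPL40.
MRPS34: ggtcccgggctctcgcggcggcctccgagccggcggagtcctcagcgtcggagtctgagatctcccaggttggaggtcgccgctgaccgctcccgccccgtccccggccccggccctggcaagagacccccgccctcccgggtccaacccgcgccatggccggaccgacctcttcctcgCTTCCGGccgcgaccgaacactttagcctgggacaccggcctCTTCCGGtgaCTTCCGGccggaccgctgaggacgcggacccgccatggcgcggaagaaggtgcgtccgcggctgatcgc
MRPL51: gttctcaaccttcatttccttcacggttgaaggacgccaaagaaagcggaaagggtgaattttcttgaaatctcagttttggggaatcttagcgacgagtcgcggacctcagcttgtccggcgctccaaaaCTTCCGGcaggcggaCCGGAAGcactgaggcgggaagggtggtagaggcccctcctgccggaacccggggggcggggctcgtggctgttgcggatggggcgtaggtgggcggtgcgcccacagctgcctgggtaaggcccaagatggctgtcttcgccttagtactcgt
MRPS22: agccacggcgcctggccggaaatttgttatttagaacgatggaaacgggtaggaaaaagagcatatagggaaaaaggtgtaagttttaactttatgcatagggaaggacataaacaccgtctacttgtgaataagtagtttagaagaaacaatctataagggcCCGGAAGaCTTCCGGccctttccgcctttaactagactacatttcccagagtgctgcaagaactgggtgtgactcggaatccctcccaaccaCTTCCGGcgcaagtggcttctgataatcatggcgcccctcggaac
MRPS18C: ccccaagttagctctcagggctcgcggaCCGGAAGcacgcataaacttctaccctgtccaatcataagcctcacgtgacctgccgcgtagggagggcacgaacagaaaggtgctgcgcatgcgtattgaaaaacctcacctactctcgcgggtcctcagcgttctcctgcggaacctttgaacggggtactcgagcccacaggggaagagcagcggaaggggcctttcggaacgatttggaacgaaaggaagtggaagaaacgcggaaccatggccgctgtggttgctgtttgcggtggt
MRPL24: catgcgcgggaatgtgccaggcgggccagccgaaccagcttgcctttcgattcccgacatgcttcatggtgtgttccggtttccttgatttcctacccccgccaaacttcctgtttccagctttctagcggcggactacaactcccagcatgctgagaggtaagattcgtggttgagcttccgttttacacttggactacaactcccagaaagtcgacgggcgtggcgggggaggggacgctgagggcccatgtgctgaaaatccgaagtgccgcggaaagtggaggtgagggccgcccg
HIRA: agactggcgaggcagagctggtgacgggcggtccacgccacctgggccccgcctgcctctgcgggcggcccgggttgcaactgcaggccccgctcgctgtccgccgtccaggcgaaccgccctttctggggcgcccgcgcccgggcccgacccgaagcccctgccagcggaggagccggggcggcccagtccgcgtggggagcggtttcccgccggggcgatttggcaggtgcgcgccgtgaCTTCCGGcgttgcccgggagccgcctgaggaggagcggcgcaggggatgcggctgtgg

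Mitochondrial ribosomal protein genes had peaks about as often as other genes of their length. A summit lay within 1 kb of an end of 6 of the 77 genes, or 7.79% (95% Wilson interval 3.62 to 16%, counting error only), where 5.86% of all protein-coding genes had one. These genes are short, with a median of 8618 bp against 24170.5 bp over all coding genes. When each was given the rate of the other coding genes in the same bin of gene length (10 bins), 4.35 genes were expected, or 5.65%, so the observed count was 1.38 times the expected. Counting summits inside genes or up to 10 kb away gave 9 of 77, or 11.7% (6.27 to 20.7%), against 9.58% of all coding genes and 7.14 expected by length. Both backgrounds lay inside the members' intervals. The nearest summit was a median of 351 kb from a member and 412 kb from any coding gene.

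The count at outer gene ends rested mostly on peaks of low rank. The stronger peak at the listed start of MRPL24, described below, is not in that count. In the upper 50% of peaks by significance, 1 member (MRPS18C) still had a summit at an end, or 1.30%, against 3.01% of all coding genes and 2.27 genes expected by length. Counted inside or up to 10 kb away they were 3, or 3.90%, near the 5% of all coding genes and the 3.78 expected.

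The MRPS genes had summits at the ends of 3 of 28, MRPS18C, MRPS28 and MRPS34, which is 10.7% (3.71 to 27.2%). The MRPL genes had them at 3 of 49, MRPL34, MRPL40 and MRPL51, which is 6.12% (2.10 to 16.5%). The difference of 4.59 percentage points had a 95% Newcombe interval from -7.94 to 21.6, so the MRPL and MRPS genes could not be told apart at this number of genes. RefSeq lists a unified name for 75 of the members, which marks counterparts of proteins found in all ribosomes (u), in bacterial ribosomes (b) or in mitochondria alone (m). None of the 26 genes of the first kind had a summit at an end (0 of 26, where 3 counts, taken as the limit, would be 11.5%), and 1.57 were expected by length. Of the second kind 2 of 18 had one (0.913 expected) and of the third 3 of 31 (1.79 expected), so each count was within 2 genes of its expectation. MRPS28, without such a name in the table, was the sixth. The 0 of the first kind depends on the use of outer gene ends. MRPL24 (uL24m) is of that kind, with a summit 150 bp from its listed start but 1778 bp from the outer end. Counted inside or up to 10 kb away, 2 of the 26 had a summit, with 2.55 expected by length.

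Most of the 6 peaks at member ends were weaker than the median peak at gene ends. Their fold enrichments over local background, the authors' values, ran from 3.10 to 5.82 with a median of 3.63, against a median of 4.87 over all 966 peaks at coding gene ends. The pileup at the summit, recovered from the fold and the p-value of each peak, was 13 to 22 fragments (median 16.5, against 20), and 4 of the 6 lay below the median of all 966 by fold, by pileup and by significance alike. The exceptions were MRPS18C, above it by fold and significance, and MRPS34, above it by pileup. None was in the upper 25% by significance. The set depends on the use of outer gene ends. It leaves out the peak of MRPL24 (fold 7.08), 150 bp from that gene's listed start, which exceeded all 6 by fold and significance. Local backgrounds of 1.92 to 5.74 fragments spanned the median of all peaks at gene ends (3.45).

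**Figure D1:**
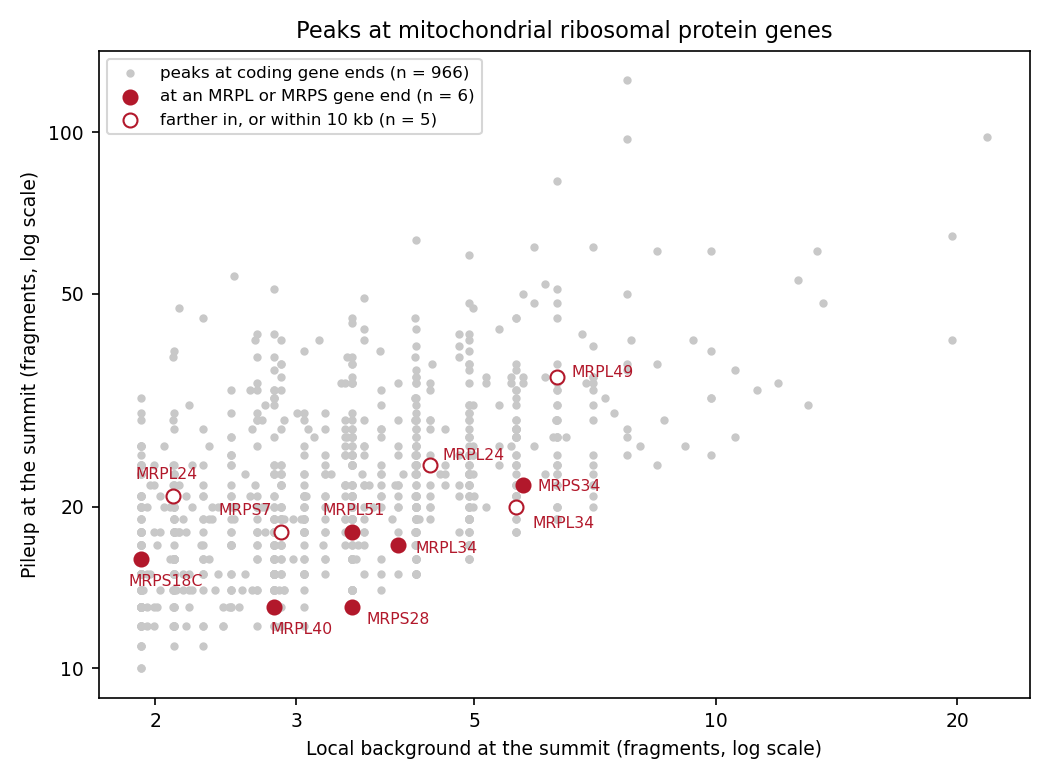
Pileup against local background at the summit, both in fragments on log scales, for the 966 peaks at coding gene ends (grey), the 6 at member ends (filled red) and the 5 farther inside or within 10 kb of a member (open red). The filled points lie at 13 to 22 fragments, within the grey cloud, and the highest open point is the 35 fragments of the SYVN1 peak near MRPL49.

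MRPS18C had the strongest of the 6. It encodes bS18m, a counterpart of the bacterial small subunit protein S18. The peak, at chromosome 4, 83455487 to 83455812, had a fold of 5.82, with 16 fragments on a background of 1.92 and a −log10 q of 6.29, and ranked 463 of the 966 by significance. Its summit was 383 bp upstream of the MRPS18C start and inside the neighbouring gene HELQ, a DNA repair helicase transcribed the other way. It lay 208 bp downstream of the outer start of HELQ, and so nearer to that start than to the MRPS18C start. The nearest summits to its paralogs, MRPS18A (unified name mL66) and MRPS18B (mS40), were 560 and 2673 kb away.

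MRPL51, which encodes the mitochondria-specific protein mL51, had a peak of 4.20 fold at chromosome 12, 6493326 to 6493703. It held 18 fragments on a background of 3.52, with a −log10 q of 4.18 and the rank 672. The summit was 252 bp upstream of the MRPL51 start and 588 bp upstream of the start of NCAPD2, a condensin subunit gene on the other strand.

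MRPS34, which encodes mS34 of the small subunit, had the summit nearest to a member's start, 24 bp inside the gene. The peak, at chromosome 16, 1773033 to 1773400, had 22 fragments on a background of 5.74, the highest of both among the 6, a fold of 3.41 and a −log10 q of 3.48. The same summit was 300 bp inside EME2, which encodes a partner of the MUS81 endonuclease and overlaps MRPS34 at its start on the opposite strand.

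MRPL34 encodes bL34m, a counterpart of a small bacterial protein of the large subunit. Its end peak, at chromosome 19, 17292346 to 17292723, had a fold of 3.59, 17 fragments and a −log10 q of 2.84, with the summit 126 bp inside the outermost of 4 listed starts. It also lay 568 bp from the downstream end of ABHD8, which runs on the other strand across that start. A second peak near MRPL34, of 3.17 fold, was 2922 bp beyond the gene and 202 bp from an end of DDA1.

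MRPL40, which encodes mL40, was counted through a peak of 3.67 fold and 13 fragments at chromosome 22, 19431813 to 19432098 (−log10 q of 2.18). The summit was 643 bp upstream of MRPL40 and 169 bp upstream of HIRA, a histone chaperone gene on the other strand, so that it lay nearer to HIRA. Among summits counted at ends this was the farthest from the member. MRPS28, on chromosome 8, had the weakest peak, of 3.10 fold and 13 fragments on a background of 3.52 (80029742 to 80030201). Its −log10 q of 1.33 was just past the threshold of the list, it ranked 961 of 966, and its summit was 409 bp inside the gene with no other coding gene's end within 1 kb.

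Of the members without a summit at an outer gene end, MRPL24, which encodes uL24m, came closest. Its peak at chromosome 1, 156740657 to 156741115, had a fold of 7.08 and a −log10 q of 10.2, both above those of the 6, with 21 fragments on a background of 2.11. The summit was 1778 bp inside the outer end of the gene but 150 bp downstream of its listed transcription start, and no other coding gene's end was within 1 kb. With summits counted within 1 kb of the outermost listed start, MRPL24 entered and MRPS28, which has no start in the table, dropped out. That count was 6 of 69 genes, or 8.70% (4.05 to 17.7%), against 6.01% of 15812 coding genes.

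**Figure D2:**
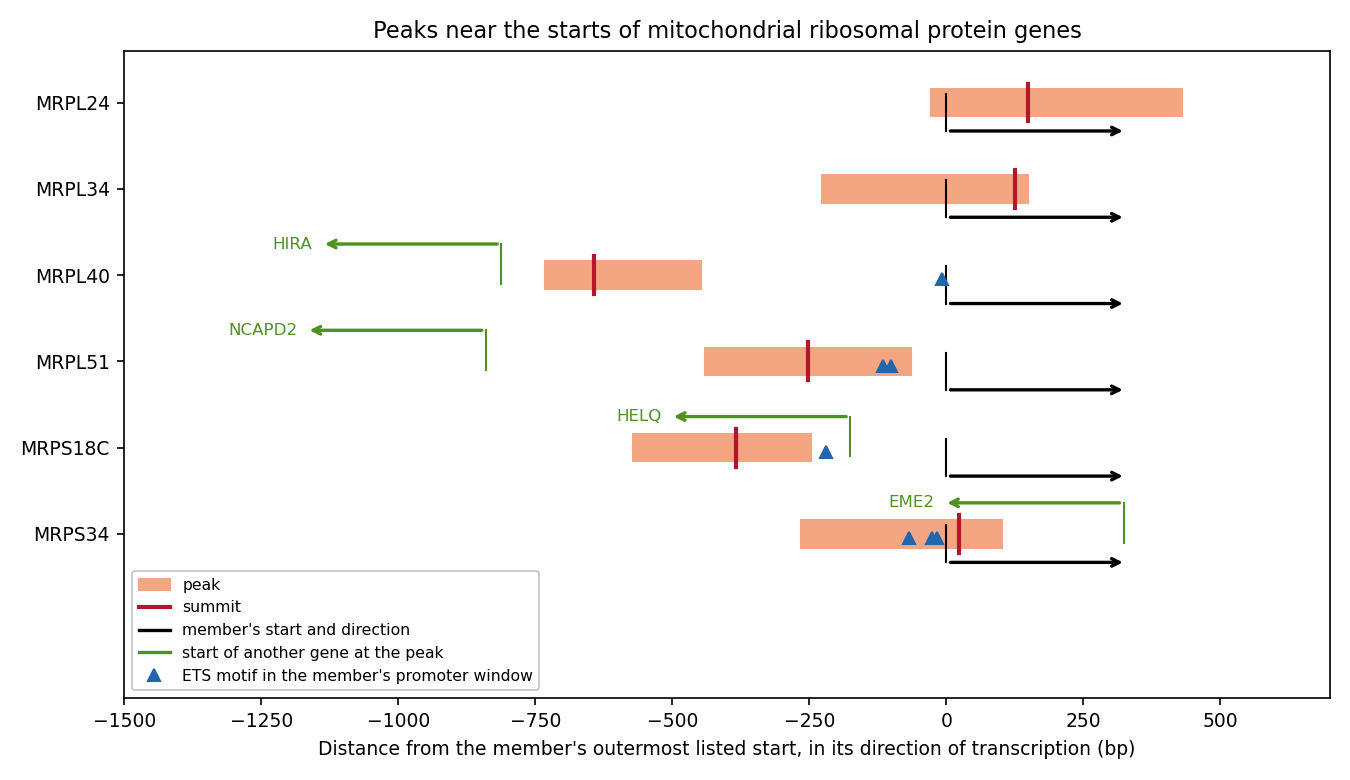
Peaks (orange bars), summits (red lines) and CCGGAAG motifs in the member's own promoter window (blue triangles) for the 6 members with a summit within 1 kb of the outermost listed start, by distance in bp along the member's direction of transcription. Black arrows mark the member, and green arrows mark the gene start of another gene at the peak. Summits lie from 643 bp upstream (MRPL40) to 150 bp downstream (MRPL24), and triangles fall inside the bars of MRPL51 and MRPS34.

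The remaining members were counted through peaks at other genes. MRPL49 (mL49) was 7229 bp from a summit of 4.91 fold and 35 fragments, the most of any peak counted here, that lay 81 bp upstream of SYVN1, a ubiquitin ligase gene of the endoplasmic reticulum. MRPL49 starts 49 bp from FAU, a cytosolic ribosomal protein gene on the other strand, and no summit was listed at that shared start. MRPS7 (uS7m) was 5147 bp from a summit of 4.91 fold that lay 231 bp upstream of MIF4GD. A second peak counted for MRPL24, of 4.63 fold, was 8741 bp away, between the starts of ISG20L2, which encodes an exonuclease of ribosomal RNA processing, and METTL25B. Just outside the 10 kb window, MRPL4 was 10670 bp and MRPS14 13815 bp from the nearest summit, and MRPL30, MRPL38 and MRPL10 followed at 26, 42.7 and 65.0 kb.

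Peaks at member ends were mostly shared with a neighbouring gene. Another coding gene's end was within 1 kb of 5 of the 6 summits, the exception being MRPS28, while this held for 216 of all 966 peaks at coding gene ends (22.4%). Counted by gene, since a shared peak is reached through more than 1 gene, it held for 434 of the 1170 coding genes with a summit at an end, or 37.1% (34.4 to 39.9%), and for 5 of the 6 members (43.6 to 97.0%). At 4 of the 5 (MRPS18C with HELQ, MRPL51 with NCAPD2, MRPS34 with EME2, MRPL40 with HIRA) the neighbour was head-to-head, meaning on the opposite strand with a start within 1 kb. The gene starts in these pairs were 175 to 840 bp apart. For these pairs the list cannot show to which gene a peak belongs. The 5 of 6 came to 2 of 5 with a window of 500 bp, since NCAPD2, ABHD8 and MRPL40 itself lay farther from the summits. Sharing was not particular to the members. All 5 oxidative phosphorylation genes with a summit at an end (NDUFS3, NDUFB9, COX4I1, NDUFA13 and ATP5ME) had another coding gene's end at that peak. Most cytosolic ribosomal protein genes with a summit at an end, such as RPS19 and RPS26, did not.

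Such pairs were common among the members, with or without a peak. A head-to-head partner was found for 23 of the 69 members with a listed start, or 33.3% (23.4 to 45.1%), against 13.7% (13.1 to 14.2%) of coding genes. It was also found for 22 of 67 genes of oxidative phosphorylation (32.8%) and 15 of 68 cytosolic ribosomal protein genes (22.1%), so such pairs were not confined to the members. Coding genes with such a partner had a summit at an end in 13.1% of cases, and those without one in 5.05%. Members with a partner had one in 4 of 23 cases, or 17.4% (6.98 to 37.1%), and members without in 1 of 46, or 2.17% (0.385 to 11.3%), that 1 being MRPL34. When each member was given the rate of coding genes of like length and the same partner state, 5.32 genes were expected and 5 observed. For summits inside a gene or up to 10 kb away, 7.86 were expected and 8 observed.

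The sequence of the promoters was compared next. The motifs, each searched on both strands of the window from 250 bases before to 50 after the outermost start, were CCGGAAG for ETS factors, the GGAA core within it, AAGATGGC for YY1, GCGCATGCG for NRF1, GGGCGG for GC-box factors, CACGTG for E-box factors, TGTGGT for RUNX factors and AGATAA for GATA factors. Member promoters held CCGGAAG in 29 of 69 cases, or 42.0% (31.1 to 53.8%), against 14.1% (13.6 to 14.7%) of 15812 coding promoters. They held AAGATGGC in 20, or 29.0% (19.6 to 40.6%), against 3.86% (3.57 to 4.18%). AAGATGGC was also in 16.4% of promoters of oxidative phosphorylation genes, 13.8% of those of the other mitochondrial lists and 10.3% of cytosolic ribosomal ones. For the other motifs the share of all coding promoters fell inside the members' interval. The NRF1 motif was in 3 (4.35%, all 2.77%), the GC box in 41 (59.4%, all 58.3%), the E-box in 7 (10.1%, all 8.82%), the RUNX motif in 5 (7.25%, all 11%) and the GATA motif in 2 (2.90%, all 7.63%). The GGAA core was in 68 of 69 and in 95.2% of all, so it separates little. The longer CCGGAAGT was in 11 member promoters (15.9%, all 6.17%).

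**Figure D3:**
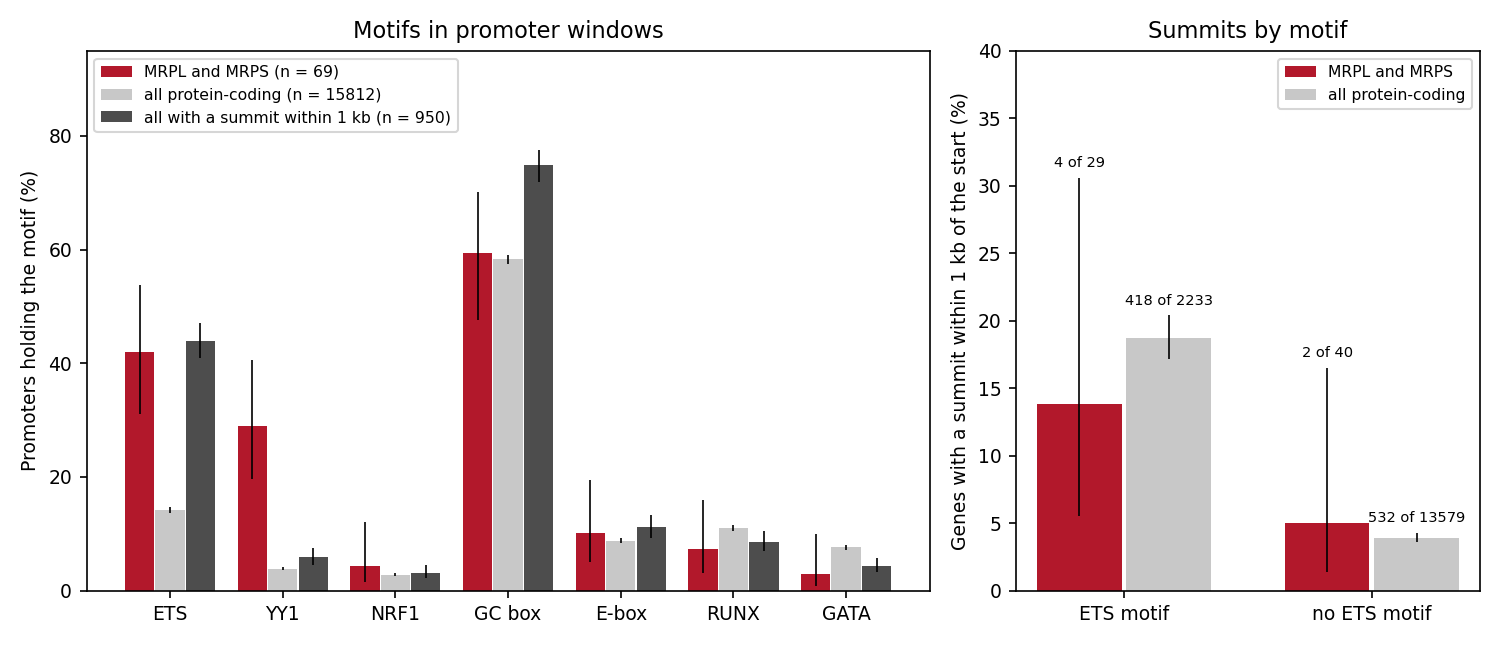
Left, percent of promoter windows holding each motif among members (red), all coding genes (light grey) and coding genes with a summit within 1 kb of the start (dark grey). Right, percent of genes with a summit within 1 kb of the outermost start, by presence of CCGGAAG, for members and all coding genes. Bars start at 0 and lines are 95% Wilson intervals. The member bar for ETS (42.0%) is close to that of genes with a summit (44.0%), while in the right panel the member bar with the motif (4 of 29) is below that of all genes.

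Across all coding genes the ETS motif went with the peaks. A summit lay within 1 kb of the start at 18.7% of promoters with CCGGAAG and at 3.92% of those without, and CCGGAAG was in 44.0% of the 950 promoters with such a summit. The 950 were also richer in GC (median 66.3%, all 62.7%) and held the GC box more often (74.8%, all 58.3%). Whether the motif goes with peaks apart from GC content was not tested. Promoters with 2 or more copies had a summit in 31.6% of cases (27.3 to 36.2%), and those with 1 copy in 15.7%. Members with the motif had a summit in 4 of 29 cases, or 13.8% (5.50 to 30.6%), and members without it in 2 of 40, or 5% (1.38 to 16.5%). If members with and without the motif had summits as often as the other coding genes, 7.01 of the 69 would have had one, against 6 observed. The members' share of motifs was 2.98 times that of all coding promoters, and their share of summits 1.45 times. These ratios are not on the same scale, since most promoters with the motif had no summit. By the motif rates 10.2% of members would have had a summit, against 8.70% observed.

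Among the 4 members with both, the motif was under the peak in 2. The same count was not made over all coding promoters, so the members cannot be compared with them on this. MRPS34 held 3 copies, centred 40, 50 and 92 bp from the summit, and MRPL51 held 2, at 136 and 151 bp. The single copy of MRPS18C was 164 bp from the summit, beyond the edge of the peak, and that of MRPL40 was 635 bp away. The HIRA window printed above holds 1 copy 164 bp from the MRPL40 summit, also beyond the edge. MRPL24 and MRPL34 had a peak and no copy in the window. The MRPL24 window covers 77 bases of its peak, and most of its 9 GGAA cores lie outside that peak. Neither window contains the summit, so a copy elsewhere under the peak would not have been seen. Conversely 25 members had CCGGAAG and no summit within 1 kb. Of the 8 members with 2 or more copies, MRPS34 and MRPL51 had a summit. The other 6, named after their values were seen, were MRPL20, MRPL27, MRPL53, MRPL58, MRPS21 and MRPS22, with the nearest summit 99 to 394 kb from the start. With the YY1 motif, 1 of 20 members had a summit (MRPL51), or 5% (0.888 to 23.6%). The 9.17% of 611 coding promoters with that motif lay inside this interval. Without it, 5 of 49 members had one, or 10.2% (4.44 to 21.8%), against 5.88% of coding promoters.

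**Figure D4:**
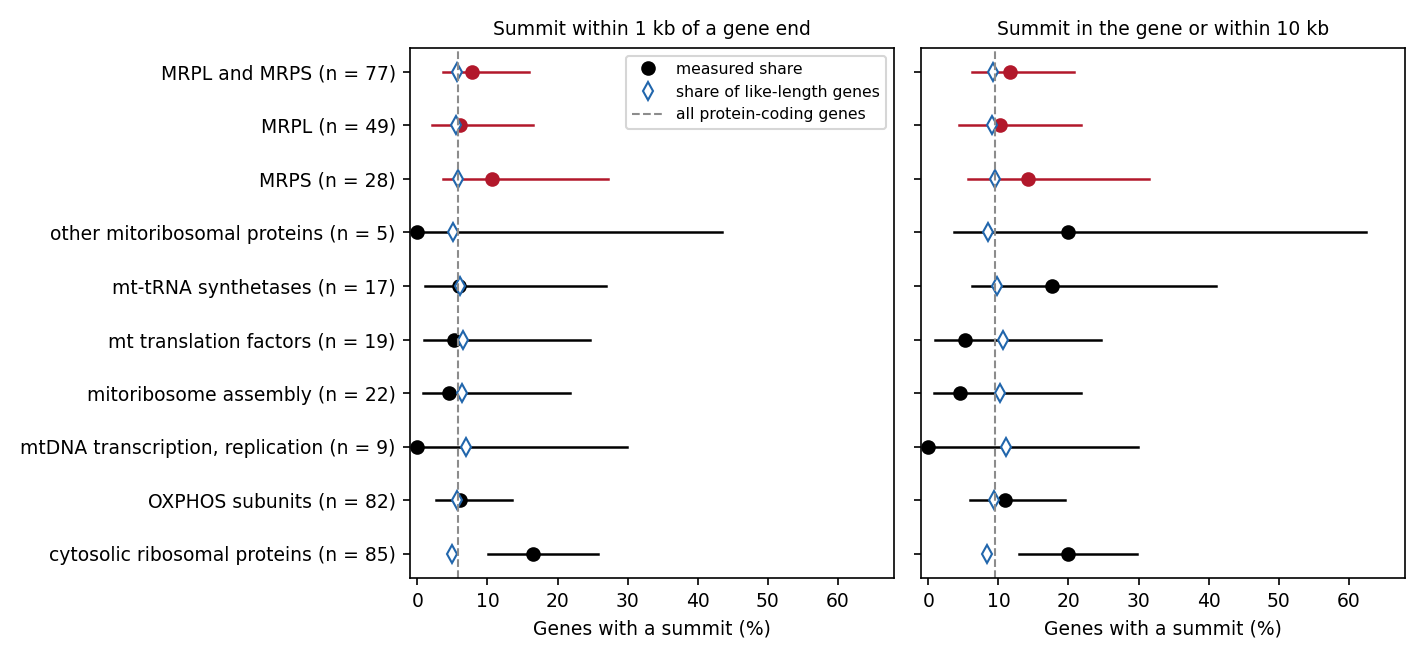
Percent of genes with a summit within 1 kb of a gene end (left) or inside the gene or up to 10 kb away (right) for members and other gene lists. Filled points are measured shares with 95% Wilson intervals, open diamonds the share of coding genes of like length, and the dashed line all protein-coding genes (5.86% and 9.58%). The member points lie close to their diamonds, and the cytosolic ribosomal protein point stands to the right of its own.

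Other genes of mitochondrial gene expression had, as a whole, peaks about as often as all coding genes. Of 72 such genes in 5 lists, 3 had a summit at an end (4.17%, 1.43 to 11.5%, against 5.86% of all coding genes and 4.54 expected by length) and 6 had one inside or up to 10 kb away (8.33%, against 9.58%). The 3 were EARS2, the mitochondrial glutamyl-tRNA synthetase gene (fold 6.04, at a peak shared with UBFD1), MTRF1L, a mitochondrial release factor gene (5.53), and MTG2, a GTPase gene of large subunit assembly (5.37, shared with SS18L1). Among the others was CARS2, the mitochondrial cysteinyl-tRNA synthetase gene (3.77), with a peak at an end of ING1. The ETS motif was in 46.2% of the 65 promoters of these lists. Of the 9 genes of mitochondrial transcription and replication, 0 had a summit inside or up to 10 kb away (3 counts would be 33.3%).

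The parts of the cell most like the mitochondrial ribosome were set beside it. Subunits of oxidative phosphorylation had a summit at an end in 5 of 82 genes (6.10%, 2.63 to 13.5%), and cytosolic ribosomal protein genes in 14 of 85 (16.5%, 10.1 to 25.8%), with 4.67 and 4.21 expected by length. The interval of the cytosolic genes overlapped that of the mitochondrial ribosomal genes, and the difference was not tested. By significance the leading cytosolic genes were RPS19 (fold 8.03), RPS26 (6.27), RPS27 (6.70), RPL6 (7.45), RPL4 (6.69) and RPSA (7.11), where the value of RPL6 is from a peak away from its ends. The largest fold of a member peak, the 7.08 of MRPL24 away from the outer ends, lay within their range. The leading genes of oxidative phosphorylation were NDUFV2 (9.70), NDUFS3 (5.91), COX6B1 (5.94), NDUFB9 (4.52), SDHA (5.46) and COX4I1 (4.26), of which NDUFS3, NDUFB9 and COX4I1 had the summit at an end. NDUFV2, COX6B1 and SDHA had it 2288, 6526 and 3088 bp from their nearest end. Each of these peaks was also at an end of another coding gene, in the order above ANKRD12, KBTBD4, ETV2, TATDN1, PDCD6 and EMC8. Of the cytosolic genes named, this held for RPS27 (RAB13) and RPL4 (ZWILCH). CCGGAAG was in 33.8% of 68 cytosolic ribosomal promoters (23.7 to 45.7%) and 29.9% of 67 of oxidative phosphorylation (20.2 to 41.7%). It was in 42.0% of mitochondrial ribosomal ones (31.1 to 53.8%). These intervals overlapped, and the differences were not tested. Of the 11 cytosolic promoters with a summit, 3 held the motif. It was held by 4 of 4 such promoters of oxidative phosphorylation, 3 of 3 of the other mitochondrial lists and 4 of 6 of the members. Over all coding promoters with a summit the share was 44.0%.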

How the data were processed

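Chromatin of F36P cells (AM-ERG or Vector, 1 library each) was cut with micrococcal nuclease before precipitation, per the labels' protocols. The submitters' processing notes list Bowtie2, MACS2, deepTools and hg38, without versions or settings. For each of 1645 peaks the deposited list gives a score. It also gives the authors' fold enrichment over local background, a ratio. Significance was deposited as −log10 p and −log10 q, and the largest q was 0.0474. Pileup and background were recovered from these values by treating the fold as a ratio of the 2, each with 1 added, and p as an upper Poisson tail. The recovered values returned −log10 p within 0.001 for all 1645 peaks. On data simulated with these same formulas, 259 of 259 pileups were recovered. This checks the arithmetic and cannot show that the peak caller used those formulas.

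Genes, starts and promoter windows came from RefSeq tables on GRCh38.p14. Windows were found for 69 of the 77 members and 15812 coding genes, and not for MRPL2, MRPL10, MRPL13, MRPL15, MRPL21, MRPL23, MRPL35 and MRPS28. Expected counts gave each gene the rate of coding genes outside the list in its bin of length. No test was run, and Wilson intervals (95%) cover counting error only. Members, lists and motifs were chosen with earlier results of these data known. The rule for named genes took members with a peak, the 5 nearest without, other genes ending at member peaks, and up to 6 genes of each other list by significance, of which some are not reported here. Alternatives covered the threshold, windows, length bins, starts and motif. Software was Python 3.11.15 with SciPy 1.17.1, numpy 2.4.6, pandas 2.3.3 and matplotlib 3.10.9.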

Additional observations from a re-analysis of the deposited data

How the results depend on the processing

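No paired analysis was possible because the labels give no replicate numbers and 1 library was made per group. Of 48 alternative values, 39 stayed within the counting interval of the main value. Some of these could not move, such as the measured shares under other length bins, and the intervals are wide. The tally is thus a weak check. Among the upper 50% of peaks by significance, 1.30% of members had a summit at an end (0.441 times the expected) and 3.90% one inside or up to 10 kb away (0.794 times). By fold these were 1.30% (0.417 times) and 5.19% (0.994 times). The shares fall by construction, as fewer peaks are kept, and the cause of the lower ratios at gene ends was not tested. The share of member peaks with another gene's end was 40% within 500 bp and 100% within 3 kb, against 15.7% and 32.1% of all peaks at gene ends, as narrower and wider windows imply. CCGGAAGT, a longer motif, was in 15.9%. Expected counts by partner state or by motif, motifs at any listed start and the shared count by gene were chosen after seeing the data. With 6 and 9 members called, a change of 1 gene moves the shares by over 1 percentage point.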
